A study of Mus musculus with 12 samples.

Results

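The genes compared here are those measured in both cell lines of a supernatant transfer experiment, and the measure is the difference between the response of stellate cells and that of tumour cells. PSC4 is a pancreatic stellate cell line from mouse, a stromal cell that lays down the fibrous tissue of pancreatic tumours, and KPC4 is a mouse pancreatic adenocarcinoma line. PSC4 was kept for 24 h in supernatant of KPC4 cells that had received vehicle (Control-SU) or gemcitabine at 10 µM (Gem-SU). Gemcitabine is a nucleoside analogue that stops DNA synthesis. The donor cells had the drug for 6 h, were washed and then conditioned starvation medium for 14 h. For the second step PSC4 cells stood for 6 h in Control-SU or Gem-SU, were washed, and conditioned fresh starvation medium for 18 h. Untreated KPC4 cells were then kept for 24 h in that medium (Control-PSC-SU or Gem-PSC-SU), so the 4 groups share medium without serum, and both KPC4 groups received stellate cell medium. Each group had 3 libraries labelled as biological replicates. The cell line, the step of the transfer and the source of the supernatant change together, and their parts in a difference between the lines cannot be told apart. Whether gemcitabine was carried over in the media was not measured.

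The difference was taken as (PSC4 Gem-SU against Control-SU) minus (KPC4 Gem-PSC-SU against Control-PSC-SU), on the log2 scale. Members were the Ensembl genes in both count tables with a mean raw count of at least 100 in each line, which left 10157 of 14360 shared genes, and all 10157 were tested. Just outside the count rule stood Flrt2, with a mean of 99.8 counts in KPC4 and a difference of 0.21. A mean under 50 counts in any of the 4 groups was found for only 28 members, and those are not named below.

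Several gene programmes bear on this system. The transcription factor p53 is stabilised by DNA damage and blocked replication, and it switches on genes of arrest, repair and apoptosis. Dividing cells express a late programme of spindle and chromosome genes that is held down outside G2 and mitosis by the DREAM complex and switched on by B-Myb and FoxM1. Stellate cells are known for collagen, proteases and growth factors. Tumour and stromal cells exchange chemokines and interleukins whose genes respond to NF-kappaB and to interferon.

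Gene counts summed to between 29559414 and 38138356 per PSC4 library and between 26354328 and 34744150 per KPC4 library. A two-sided exact permutation test of 3 against 3 on these totals gave p = 0.9 in PSC4 and 0.4 in KPC4, and it cannot go below 0.1. Of 13 stellate and fibroblast markers, 12 had at least 10 counts in every PSC4 library, and Lum is not in that table. Their summed level was 7727 to 8819 CPM with Control-SU and 2455 to 3705 CPM with Gem-SU. CPM are counts scaled to the library total, the plain total for these markers and the adjusted total for the genes below. Of 12 pancreatic epithelial markers 11 had at least 10 counts in every KPC4 library, at 5693 to 7625 CPM in sum, against 33.3 to 66.6 CPM in PSC4, where Epcam, Cdh1, Cldn4 and Tff1 are not in the table. The stellate sum in KPC4 was 1716 to 2825 CPM, which overlaps that of Gem-SU PSC4. It came mostly from Vim, with means of 2607 and 2047 CPM in the KPC4 arms against 1648 and 599 CPM in PSC4, and Pdgfrb, Thy1, Des, Postn, Lum and Dcn are not in the KPC4 table. The epithelial markers thus separated the lines, and the summed stellate markers did so only for Control-SU PSC4. The libraries did not respond alike within groups: Gem-PSC-SU replicate 1 moved least of the KPC4 libraries in several lists given below, and Control-PSC-SU replicate 2 stood above the other controls for dividing-cell genes.

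The response differed between the lines for 1082 of the 10157 members, or 10.7%, against 9.85% of all 13632 genes tested (edgeR quasi-likelihood interaction, adjusted p under 0.05). The share of members was close to that of all genes tested. Background here and below is the share of all 13632 genes tested. Of the called members 537 were higher in the PSC4 response (5.29% of members, background 4.75%) and 545 lower (5.37%, background 5.1%). In the same fit 4618 members changed in PSC4 (45.5%, background 40.1%) and 528 in KPC4 (5.2%, background 4.47%). In PSC4 2206 were higher (21.7%, background 19.2%) and 2412 lower (23.7%, background 21%). Of the 528 in KPC4, 482 were higher, which is 4.75% of members (background 4.1%). With KPC4 fitted by itself 0 members passed in edgeR, 1908 had an unadjusted p under 0.05, and in fits of all libraries DESeq2 called 1125 and limma 357. KPC4 differences are therefore given below mainly as values, and the calls are those of the interaction. Where genes are counted as passing in KPC4, the count is that of the joint fit, and none of those genes passed with KPC4 fitted by itself. Across members the changes of both lines correlated (Pearson's r 0.521, Spearman's rho 0.559, over genes that are not independent), and the spread was wider in PSC4 (SD 0.934) than in KPC4 (SD 0.574). The signs of both changes differed for 53% of the called members and for 29.2% of all members. A call on the difference itself favours unlike signs, so the higher share among called members is no separate result.

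Called members were sorted by size. Opposite changes had at least 0.5 (log2) up in one line and at least 0.5 down in the other, with no overlap between the arms in either line. Arms without overlap were found for 54.4% of all genes tested in PSC4 and 22.4% in KPC4. A PSC4-restricted change had at least 1 (log2) in PSC4 without overlap and less than 0.5 in KPC4 in either direction, and a KPC4-restricted change the reverse. There were 50 opposite changes, or 0.492% of members (background 0.682%). PSC4-restricted changes numbered 648, or 6.38% (background 5.6%), and KPC4-restricted changes 23, or 0.226% (background 0.235%). A further 82 members moved in one direction in both lines, 79 of them further in PSC4, and 279 met none of these sizes. A small KPC4 value in the restricted class is a matter of size and does not show that KPC4 did not respond. Without Gem-PSC-SU replicate 1 the interaction count was 1087, with 129 opposite, 490 PSC4-restricted and 64 KPC4-restricted changes. Leaving out Gem-SU replicate 2 gave the lowest interaction count, 496, and leaving out Gem-PSC-SU replicate 2 the highest, 1680.

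**Figure D1:**
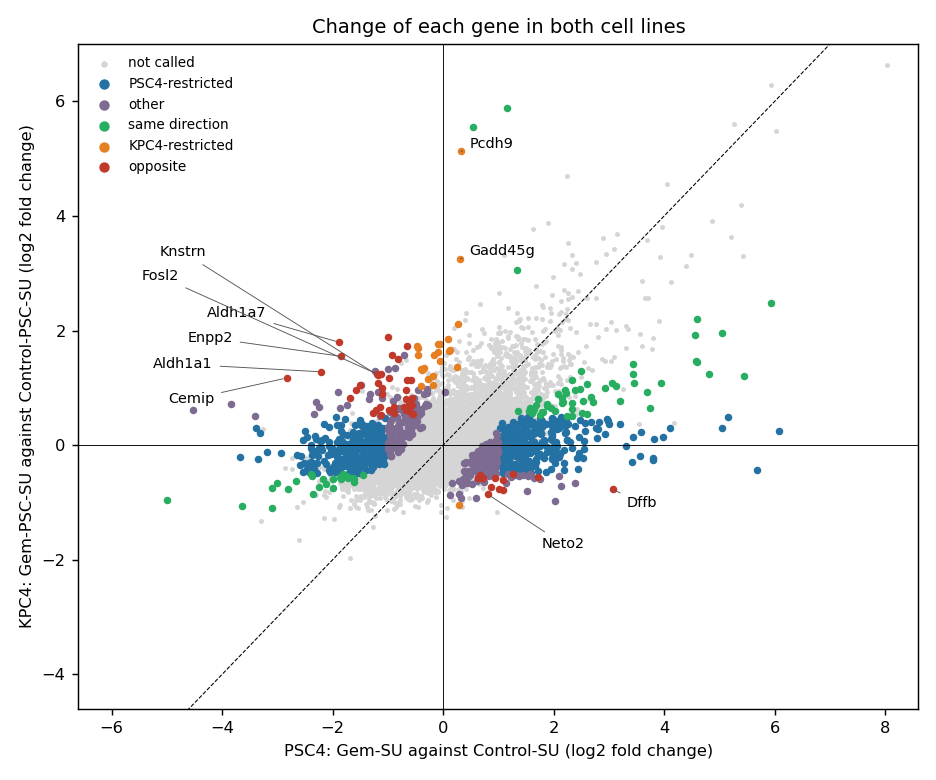
Log2 fold change of each member in PSC4 (horizontal axis) and KPC4 (vertical axis), coloured by class, with the line of equal change dashed. The 50 opposite changes lie in the upper left and lower right, 37 of them in the upper left, and the pseudogene Rps6-ps4, whose fitted difference of -26.53 lies off the plot, is left out.

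Of the 50 opposite changes 37 were lower in PSC4 and higher in KPC4 (0.364% of members, background 0.499%). The other 13 were the reverse (0.128% of members, background 0.183%). Both line changes passed in the joint fit for 12 of the 37 and for 1 of the 13. Genes with the largest changes in both lines coded for a secreted lipid enzyme (Enpp2), a hyaluronan protein (Cemip), aldehyde dehydrogenases (Aldh1a1, Aldh1a7), an AP-1 subunit (Fosl2) and a spindle protein (Knstrn). These were named by a rule of size. The KPC4 changes of Cemip, Aldh1a1 and Aldh1a7 did not pass in the joint fit (edgeR adjusted p = 0.094, 0.168 and 0.145). Of all 79 genes named by rule, 57 kept the call in all 21 alternatives tried and 0 changed direction, and the other 22 are marked below. The genes named further on in this class and in the lists, where they are outside that rule, were picked after their values were seen.

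Enpp2 (ENSMUSG00000022425) codes for autotaxin, the secreted enzyme that makes lysophosphatidic acid, and was the member of the class with the widest gap between lines in level. Control-SU PSC4 libraries held 1064, 1301 and 953 CPM and Gem-SU libraries 407, 279 and 239 CPM. The KPC4 libraries held 12.2, 7.04 and 8.72 CPM with Control-PSC-SU and 36.1, 21.1 and 24.7 CPM with Gem-PSC-SU. Every Gem-SU library was below, and every Gem-PSC-SU library above, the controls of its line, as the class required. Enpp2 fell by 1.84 on the log2 scale in PSC4 and was higher by 1.55 in KPC4, a difference of -3.39 (SE 0.39, edgeR adjusted p = 0.000526). The level in PSC4 stayed above that in KPC4 in all libraries.

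Cemip (ENSMUSG00000052353) codes for a hyaluronan-binding protein needed for the breakdown of hyaluronan. Its levels in PSC4 were 135, 91.5 and 117 CPM with Control-SU and 26.9, 12.5 and 8.68 CPM with Gem-SU. In KPC4 they were 6.55, 12.6 and 8.05 and 18.5, 26.3 and 16.5 CPM. The PSC4 arms were far apart, and the KPC4 arms were separated by a narrower gap. The change was -2.83 in PSC4 and 1.17 in KPC4, with a difference of -4.005 (SE 0.54, edgeR adjusted p = 0.000962).

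Aldh1a1 and Aldh1a7 are close relatives that oxidise retinaldehyde and other aldehydes, and reads of one can be counted for the other. Aldh1a1 (ENSMUSG00000053279) was at 10.3, 6.22 and 9.28 CPM with Control-SU and 3.55, 0.557 and 1.45 CPM with Gem-SU, and in KPC4 at 2.24, 2.45 and 3.45 CPM and 7.40, 4.82 and 7.58 CPM. For Aldh1a7 (ENSMUSG00000024747) the PSC4 values were 18.6, 10.8 and 17.2 and 9.68, 1.67 and 1.22 CPM, and the KPC4 values 1.89, 2.66 and 3.02 and 8.10, 4.05 and 14.2 CPM. Gem-SU replicate 1 was the highest of its group for both. The differences were -3.49 and -3.68 (edgeR adjusted p = 0.00973 and 0.0261), and that of Aldh1a7 lost the threshold in 7 of 21 alternatives, each leaving out 1 library (highest edgeR adjusted p 0.0687). Aldh3a1, another aldehyde dehydrogenase, had changes of -1.12 and 1.23. Ahr, the aryl hydrocarbon receptor, for which Aldh3a1 is a known target, had changes of -0.65 in PSC4, which did not pass, and 1.74 in KPC4.

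Fosl2 (ENSMUSG00000029135) codes for Fra-2, a partner of Jun in the AP-1 factor. Its PSC4 libraries lay at 362, 253 and 378 CPM with Control-SU and 137, 155 and 143 CPM with Gem-SU. KPC4 libraries lay at 91.2, 73.97 and 78.5 CPM and 149.6, 246 and 179.8 CPM. Both lines had arms without overlap, in opposite order, as the class required. The difference was -2.43 (SE 0.30, edgeR adjusted p = 0.000631), made of -1.19 in PSC4 and 1.24 in KPC4. Klf10, a TGF-beta responsive repressor, had the same pattern with -0.59 and 1.14.

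Knstrn (ENSMUSG00000027331) codes for kinastrin, which holds sister chromatids and spindle poles in order during mitosis. In PSC4 its level was 84.4, 121 and 95.8 CPM with Control-SU and 47.4, 41.5 and 43.8 CPM with Gem-SU. Among KPC4 libraries it was 38.1, 63.4 and 43.8 CPM and 120.1, 87.7 and 131 CPM. Control-PSC-SU replicate 2 was the highest of the KPC4 controls and still below all Gem-PSC-SU libraries. The changes were -1.18 and 1.22, a difference of -2.40 (SE 0.31, edgeR adjusted p = 0.000897).

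Of the other members of the group of 37, these 4 were picked for their role outside or at the surface of cells, and the group also holds many intracellular proteins. Mmp13, a collagenase, had changes of -1.01 in PSC4 and 1.88 in KPC4. F3, tissue factor, which starts blood clotting, had -0.93 and 1.58. Htra1, a secreted serine protease, had -1.21 and 0.62. For Egfr, the receptor of EGF, the values were smaller, -0.57 and 0.54, and the difference lost the threshold in 10 of 21 alternatives (highest adjusted p of edgeR or limma 0.0902).

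The 13 members that were higher in PSC4 and lower in KPC4 had smaller KPC4 changes, and among the 6 named ones those of Epop, Zfp428 and Dyrk3 lost the threshold in 11, 6 and 4 of 21 alternatives. Dffb (ENSMUSG00000029027) codes for the caspase-activated nuclease that cuts DNA in apoptosis. It was at 4.03, 2.45 and 4.69 CPM with Control-SU and 30.1, 39.3 and 24.3 CPM with Gem-SU in PSC4. In KPC4 it was at 3.84, 5.44 and 4.22 CPM and 3.41, 2.06 and 2.46 CPM. The PSC4 arms were widely separated, while the KPC4 arms nearly met. Dffb rose by 3.07 in PSC4 and was at -0.77 in KPC4, a difference of 3.84 (SE 0.43, edgeR adjusted p = 0.000452).

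Neto2 (ENSMUSG00000036902), an accessory subunit of kainate receptors, was the one gene of the 13 whose changes passed in both lines. Its values in PSC4 were 55.5, 89.5 and 65.6 CPM with Control-SU and 109, 122 and 138 CPM with Gem-SU. Those in KPC4 were 123, 155 and 106 CPM and 79.2, 80.04 and 51.9 CPM. The difference of 1.67 (SE 0.32, edgeR adjusted p = 0.00683) was made of nearly equal parts, 0.81 and -0.86. Dusp9, a phosphatase that switches off MAP kinases, had 1.08 and -0.61 (edgeR adjusted p of the difference = 0.00375). Epop, a partner of Polycomb and elongin, had 1.09 and -0.77, the zinc finger gene Zfp428 1.01 and -0.77, and the kinase gene Dyrk3 0.86 and -0.73. Polr1b, a subunit of RNA polymerase I, and Mthfd1l, a mitochondrial enzyme of folate metabolism, had 0.70 and -0.58, and 0.71 and -0.57. Phlda3, a p53 target that holds back Akt, had 1.71 and -0.56.

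**Figure D2:**
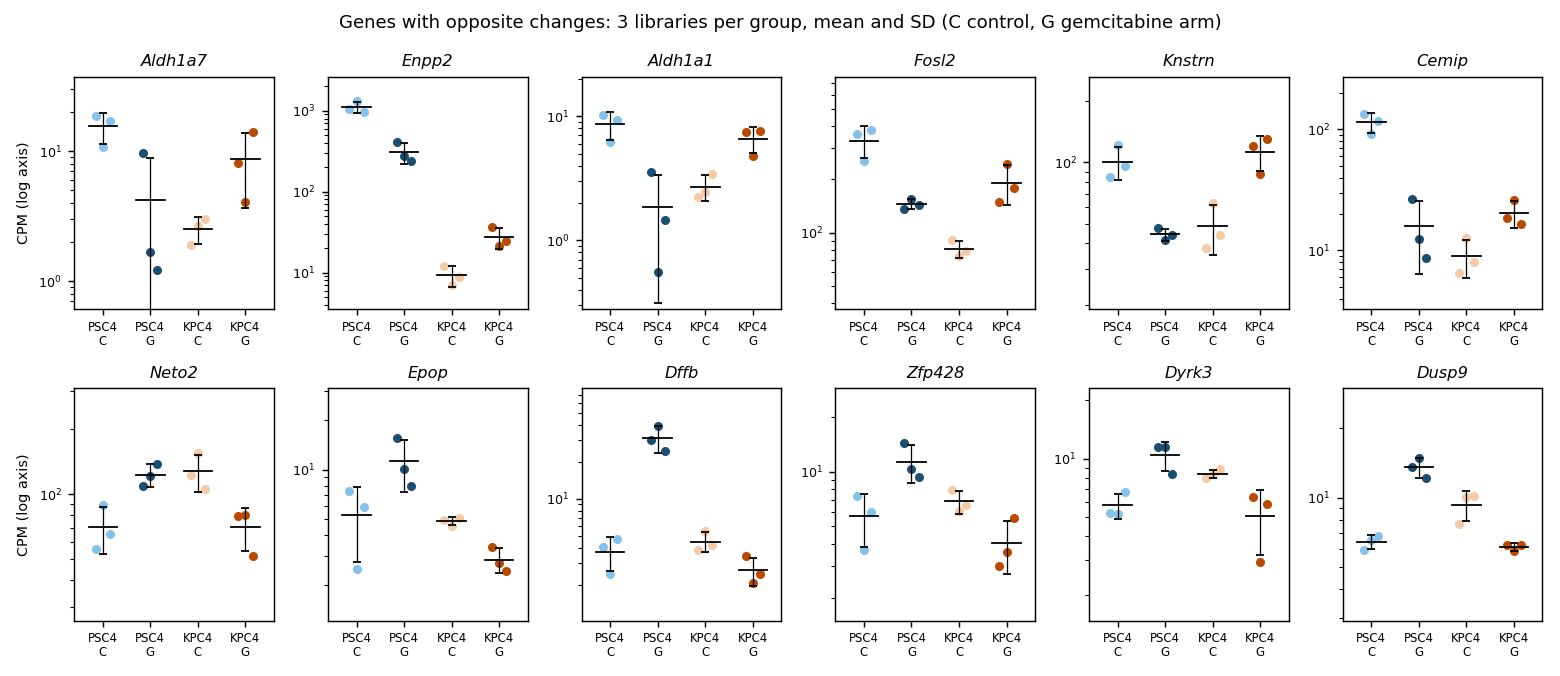
CPM of the 12 named genes with opposite changes in every library (points, log axis), with the mean and SD of each group of 3, where C is the control and G the gemcitabine arm. In the upper row all Gem-SU points lie below and all Gem-PSC-SU points above their controls, and in the lower row the order is reversed. The class required this separation. The lower SD bar of Aldh1a7 with Gem-SU runs off the axis.

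The 648 PSC4-restricted changes were divided between 333 increases (3.28% of members, background 2.87%) and 315 decreases (3.1%, background 2.73%). All of them passed in PSC4 in the joint fit. Among the increases, the named genes coded for an adhesion protein (Igsf9b), a tyrosine kinase (Tec), a DEP domain protein (Depdc7) and membrane transporters (Slc4a11, Slc7a11). Among the decreases they coded for a peptidase (Mme), serpins (Serpinb6b, Serpinb9), a linker histone (H1f0) and a RING finger protein (Rnf150).

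Igsf9b (ENSMUSG00000034275), an immunoglobulin family adhesion protein of inhibitory synapses, was at 6.61, 8.92 and 8.92 CPM in Control-SU PSC4 and at 69.99, 159.9 and 111 CPM in Gem-SU PSC4. The KPC4 values were 6.35, 5.98 and 5.83 CPM and 6.08, 4.08 and 5.08 CPM. Only the PSC4 arms were separate. The difference was 4.06 (SE 0.39, edgeR adjusted p = 0.000242). Tec (ENSMUSG00000029217), a non-receptor tyrosine kinase, rose from 1.87, 2.80 and 2.23 CPM to 24.01, 33.8 and 23.3 CPM in PSC4, against 6.35, 4.20 and 7.21 CPM and 7.80, 2.88 and 4.92 CPM in KPC4. Its difference was 3.74 (edgeR adjusted p = 0.000958).

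Depdc7 (ENSMUSG00000027173) is less studied, and its difference had one of the lowest p-values of all members. It was at 3.39, 3.52 and 4.23 CPM with Control-SU and at 45.3, 50.3 and 38.1 CPM with Gem-SU. The KPC4 libraries held 29.9, 25.7 and 33.2 CPM and 33.2, 39.8 and 31.6 CPM. Gem-SU brought PSC4 from below to around the KPC4 level of the same gene. The changes were 3.59 and 0.24, a difference of 3.35 (SE 0.27, edgeR adjusted p = 7.4e-05). Slc4a11 (ENSMUSG00000074796), a membrane transporter of the bicarbonate carrier family, went from 4.47, 1.70 and 2.62 CPM to 27.8, 35.4 and 24.4 CPM in PSC4, and had 14.03, 12.99 and 18.7 CPM and 8.79, 20.2 and 16.2 CPM in KPC4. In KPC4 its arms overlapped, with Gem-PSC-SU replicate 1 the lowest.

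Mme (ENSMUSG00000027820) codes for neprilysin, a surface peptidase that cleaves signalling peptides. PSC4 libraries had 277, 223 and 219.5 CPM with Control-SU and 33.1, 16.9 and 19.1 CPM with Gem-SU. KPC4 libraries had 4.31, 4.65 and 3.42 CPM and 6.30, 4.57 and 4.35 CPM. Mme was low in KPC4 throughout and its arms overlapped there. It fell by 3.38 on the log2 scale in PSC4, a difference of -3.68 (SE 0.37, edgeR adjusted p = 0.000242).

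H1f0 (ENSMUSG00000096210) codes for linker histone H1.0, which accumulates in resting and differentiated cells. With Control-SU it was at 1035, 835 and 851 CPM and with Gem-SU at 98.5, 55.3 and 57.8 CPM. In KPC4, H1f0 was at 321, 332 and 345 CPM and 381, 184 and 301 CPM. The KPC4 arms overlapped, since Gem-PSC-SU replicate 1 was above and the other two below the controls. The difference was -3.48 (SE 0.38, edgeR adjusted p = 0.000426).

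Serpinb9 (ENSMUSG00000045827) codes for an inhibitor of granzyme B, and Serpinb6b (ENSMUSG00000042842) for a related intracellular serpin. Both belong to a family of similar genes whose reads can be shared. Serpinb9 went from 61.4, 87.3 and 78.9 CPM to 11.9, 7.22 and 5.82 CPM in PSC4, with 27.2, 34.02 and 25.4 CPM and 22.6, 29.9 and 27.7 CPM in KPC4. Serpinb6b went from 35.01, 52.5 and 52.9 CPM to 5.52, 3.67 and 4.93 CPM in PSC4, with 65.4, 60.8 and 67.5 CPM and 59.1, 80.5 and 85.9 CPM in KPC4. Their differences were -3.07 and -3.53 (edgeR adjusted p = 0.000561 and 0.000151). Rnf150, which codes for a RING finger protein, had changes of -3.34 and -0.23.

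In level over all 6 libraries of a line, genes with PSC4-restricted increases were higher in PSC4 than in KPC4 in 55.9% of cases and those with decreases in 43.2%, against 50.9% of all members. The median gap between the lines was 0.15 and -0.15 (log2), against 0.02 for all members. These levels include the Gem-SU libraries, whose change defined the class, so they cannot give the gap between the lines in the controls. The shares and medians are a description over genes, with no test.

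**Figure D3:**
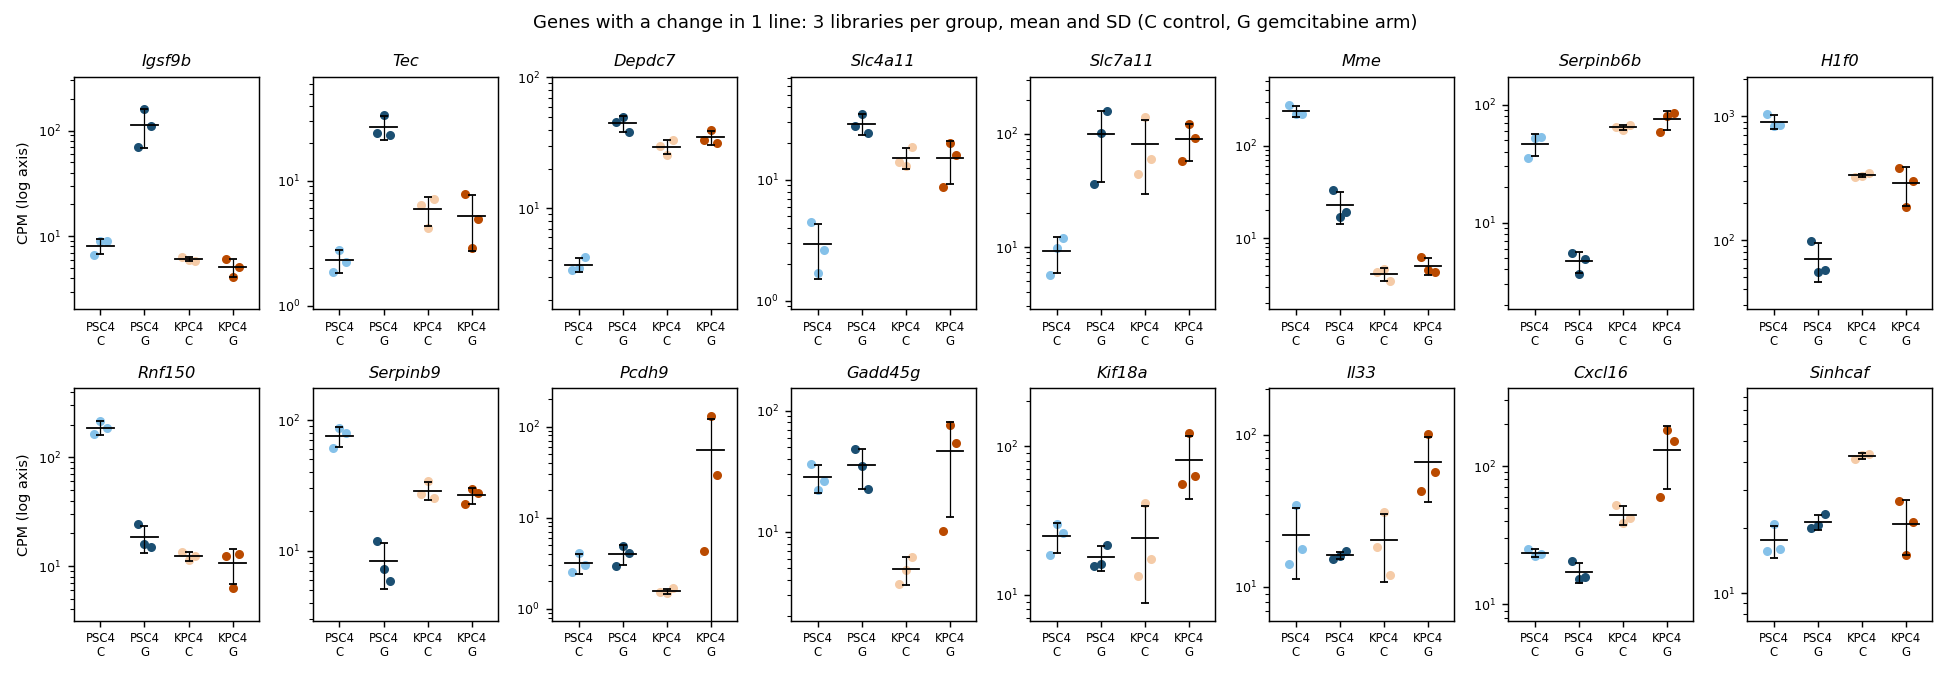
CPM of the 16 named genes with a change restricted to 1 line, in every library (points, log axis), with the mean and SD of each group of 3, where C is the control and G the gemcitabine arm. The first 10 panels show separate PSC4 arms and overlapping KPC4 arms, and the last 6 separate KPC4 arms. The classes required separate arms in the line of the change. In the Pcdh9, Gadd45g and Cxcl16 panels the Gem-PSC-SU points are widely spread, replicate 1 being the lowest, and the lower SD bar of Pcdh9 runs off the axis.

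The 23 KPC4-restricted changes were 22 increases (0.217% of members, background 0.220%) and 1 decrease, that of Sinhcaf (0.00985%, background 0.0147%). Of the list of 32 mitosis genes, 2 were in the class, Plk1 and Bub1b. Other increases, picked by eye after their values were seen, were Kif18a, Kif2c, Cdca3, Dlgap5, Nusap1, Oip5 and Prr11, known for roles in cell division, and Il33, Cxcl16, Oas2 and Tnfrsf9, known from inflammation. The class was small and rested on few libraries: it held from 7 to 68 genes when 1 library was left out, the former without PSC4 Control-SU replicate 2 or Gem-SU replicate 2 and the latter without Control-PSC-SU replicate 2.

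Kif18a (ENSMUSG00000027115) codes for a kinesin that damps the movement of chromosomes at the spindle. Its PSC4 values were 18.6, 29.97 and 25.9 CPM with Control-SU and 15.7, 16.2 and 21.7 CPM with Gem-SU. Its KPC4 values were 13.4, 41.6 and 17.4 CPM and 55.8, 122 and 63.3 CPM. All Gem-PSC-SU libraries were above the controls, as the class required, and Control-PSC-SU replicate 2 was the highest control. The difference was -2.21 (SE 0.56, edgeR adjusted p = 0.0264), and it lost the threshold in 5 of 21 alternatives, each leaving out 1 library (highest edgeR adjusted p 0.071).

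Il33 (ENSMUSG00000024810), an alarmin of the interleukin 1 family, showed 14.1, 34.4 and 17.8 CPM and 15.3, 16.02 and 17.2 CPM in PSC4, arms that overlapped. In KPC4 it showed 18.3, 31.2 and 12.03 CPM and 42.6, 101 and 56.7 CPM, without overlap. Cxcl16 (ENSMUSG00000018920), a chemokine bound to the membrane, had 25.1, 22.3 and 23.2 CPM and 20.4, 15.2 and 15.8 CPM in PSC4 and 52.4, 38.8 and 41.9 CPM and 60, 182 and 153 CPM in KPC4. Gem-PSC-SU replicate 1 was the lowest of its group for both and came close to the highest control for Cxcl16. The differences were -2.15 and -2.03 (edgeR adjusted p = 0.0306 and 0.0131), and Il33 lost the threshold in 5 of 21 alternatives (highest edgeR adjusted p 0.078).

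Pcdh9 (ENSMUSG00000055421), a protocadherin, and Gadd45g (ENSMUSG00000021453), a stress protein that acts on growth arrest and demethylation, had the widest spread. In KPC4, Pcdh9 was at 1.54, 1.48 and 1.68 CPM in controls and at 4.25, 131 and 29.4 CPM with Gem-PSC-SU. For Gadd45g these values were 3.70, 4.83 and 6.20 CPM and 10.2, 76.4 and 53.95 CPM. Replicates 2 and 3 of Gem-PSC-SU were the highest for both genes, and replicate 1 was still above all KPC4 controls. PSC4 held 2.51, 4.05 and 3.02 CPM and 2.97, 4.90 and 4.11 CPM of Pcdh9, with overlapping arms. The differences were -4.81 (SE 1.14) and -2.94 (SE 0.74); in the fit with the replicate block that of Pcdh9 did not pass (edgeR adjusted p = 0.12). They lost the threshold in 7 and 8 of 21 alternatives. Sinhcaf (ENSMUSG00000039985), a subunit of a histone deacetylase complex, was at 41.5, 43.2 and 43.9 CPM in KPC4 controls and 26.7, 14.9 and 21.2 CPM with Gem-PSC-SU, and at 15.7, 20.9 and 15.9 CPM and 19.9, 20.6 and 23.2 CPM in PSC4.

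Gene lists are set below against all members, of which 10.7% were called for the difference and 45.8% had a difference above 0. As higher in PSC4 5.29% were called, and as lower 5.37%. For called genes these words give the sign of the difference, and a gene called as lower need not have fallen in PSC4 itself. For the counts within a line, 21.7% of members rose and 23.7% fell in PSC4. In KPC4 4.75% of members passed as higher in the joint fit, and 4794 of 10157 were above 0. With the replicate block in both lines 24.8% of members were called, although the numbers paired every library by its values in KPC4 alone. For the 32 mitosis genes the median change was 0.58 in PSC4 and 1.5 in KPC4, with a median difference of -0.93 against -0.07 for all members. In KPC4 all 32 were above 0 and 20 passed in the joint fit, and in PSC4 12 rose and 2 fell. For the difference 4 of 32 passed (12.5%, near the share of all members), all lower in PSC4: Ccnb2, Plk1, Ube2c and Bub1b. With the replicate block 18 passed (56.2%). Ccnb2, cyclin B2, changed by -1.10 and 0.99, and Ube2c, a ubiquitin conjugating enzyme of mitotic exit, by -0.84 and 0.83. Plk1, the polo-like kinase, had -0.09 and 1.62, and Bub1b, a spindle checkpoint kinase, 0.24 and 1.36.

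Control-PSC-SU replicate 2 stood apart here. The median level of the mitosis list, relative to the mean of the KPC4 controls, was -0.67, 0.91 and -0.28 in the 3 controls and 1.34, 2.08 and 1.52 with Gem-PSC-SU. The part of that library in the KPC4 change of the list was not tested. In PSC4 the list lay between -0.11 and 0.09 with Control-SU and between 0.50 and 0.61 with Gem-SU. Replication genes (34) showed a narrower gap, with medians of 0.74 in PSC4 and 1.13 in KPC4 and 1 call (2.94%), that of Pold1, against 14 (41.2%) with the replicate block. Of the 20 genes of recombination and checkpoint 0 passed for the difference in edgeR, 1 had an unadjusted p under 0.05, and DESeq2, limma and the fit with the block called 1 each, with medians of 1.07 and 1.36.

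Promoters of some mitotic members are printed because the sites that DREAM and B-Myb use to hold and release this programme are short and known. A search took 300 bases per gene, from 250 before to 50 after the start site, from RefSeq on build GRCm38.p6, for 6 motifs on both strands: the NF-Y box CCAAT, the core of the cell cycle homology region TTTGAA, the CRE motif TGACGT, the AP-1 site TGACTCA, an ETS site GGAAGTG and the E-box CACGTG. Among 19 promoters of KPC4-restricted increases they were found in 68.4%, 47.4%, 10.5%, 0%, 0% and 15.8%, in that order, and among 8016 member promoters in 39.9%, 11.6%, 13.1%, 3.23%, 15.8% and 10.9%. For the 28 opposite changes lower in PSC4 the shares were 39.3%, 25%, 7.14%, 10.7%, 7.14% and 7.14%, and over all 27025 promoters 37.9%, 18.1%, 7.64%, 5.17%, 11.2% and 7.24%. The NF-Y box binds factor NF-Y, and the homology region is bound by DREAM. Their combination was not among the 6 motifs chosen at first and was added to them. Both motifs together were found in 18 of 27 promoters of the mitosis list (66.7%), in 8 of 19 of KPC4-restricted increases (42.1%) and in 5 of 28 of the opposite changes lower in PSC4 (17.9%). Of 8016 member promoters 5.05% held both, and of all 27025 promoters 7.12%. A match describes these letters and is not a bound site. The mitotic members Knstrn, Kif18a and Nusap1 held neither motif and Kif2c no NF-Y box. Below, Ccnb2 (opposite) and Plk1 and Cdca3, a mitotic entry gene (both KPC4-restricted), were chosen because they hold both motifs, and Kif18a (KPC4-restricted) because it holds neither, with all matches of the NF-Y box and TTTGAA in capitals (ATTGG is the NF-Y box on the other strand).
Ccnb2: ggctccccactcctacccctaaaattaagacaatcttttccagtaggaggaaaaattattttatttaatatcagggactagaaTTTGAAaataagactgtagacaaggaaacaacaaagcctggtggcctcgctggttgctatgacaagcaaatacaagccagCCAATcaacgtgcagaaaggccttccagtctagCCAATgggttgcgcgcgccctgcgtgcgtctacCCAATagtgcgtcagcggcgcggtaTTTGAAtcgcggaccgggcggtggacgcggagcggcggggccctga
Plk1: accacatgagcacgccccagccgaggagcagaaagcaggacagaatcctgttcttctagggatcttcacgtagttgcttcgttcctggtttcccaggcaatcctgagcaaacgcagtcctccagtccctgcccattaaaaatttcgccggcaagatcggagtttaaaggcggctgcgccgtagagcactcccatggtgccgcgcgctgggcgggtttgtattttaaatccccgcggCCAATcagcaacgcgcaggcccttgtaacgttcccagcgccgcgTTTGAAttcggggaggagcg
Cdca3: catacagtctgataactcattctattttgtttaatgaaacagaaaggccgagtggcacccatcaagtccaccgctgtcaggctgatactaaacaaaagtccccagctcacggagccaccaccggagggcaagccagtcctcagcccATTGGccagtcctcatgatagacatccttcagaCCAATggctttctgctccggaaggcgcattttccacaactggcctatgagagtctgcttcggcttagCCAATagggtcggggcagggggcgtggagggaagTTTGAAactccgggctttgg
Kif18a: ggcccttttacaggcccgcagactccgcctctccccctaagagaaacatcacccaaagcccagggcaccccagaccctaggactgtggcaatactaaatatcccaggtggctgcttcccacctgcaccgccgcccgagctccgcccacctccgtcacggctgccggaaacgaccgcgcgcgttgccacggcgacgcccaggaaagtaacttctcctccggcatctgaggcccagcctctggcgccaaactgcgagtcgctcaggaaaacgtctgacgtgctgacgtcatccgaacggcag
Ccnb2 lies at chr9:70421505-70421804 (- strand), Plk1 at chr7:122159185-122159484 (+ strand), Cdca3 at chr6:124829926-124830225 (+ strand) and Kif18a at chr2:109280488-109280787 (+ strand), each printed on the strand of its gene. In the first 3 the TTTGAA nearest the start lies within 50 bases after it, with the closest NF-Y box upstream. Cdca3 was at -0.38 in PSC4 and 1.31 in KPC4.

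Genes of the p53 response went further up in PSC4. Of 23 member targets 14 were called (60.9%), all higher in the PSC4 response, and 21 had a difference above 0 (91.3%). The median change was 2.46 in PSC4 and 0.37 in KPC4. In PSC4 19 rose and 1 fell, and in KPC4 8 passed in the joint fit, all higher. Mdm2, Cdkn1a, Btg2, Polk and Pmaip1 were higher in both lines and further in PSC4, so that for these the lines differed in size, not in direction.

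Ccng1 (ENSMUSG00000020326), cyclin G1, was at 126, 172 and 113 CPM with Control-SU and 692, 899 and 666 CPM with Gem-SU in PSC4. In KPC4 it was at 116, 103 and 100.2 CPM and 103, 94.4 and 93.4 CPM. The KPC4 arms overlapped and lay close together. The difference was 2.59 (SE 0.27, edgeR adjusted p = 0.000295). Trp53inp1 (ENSMUSG00000028211), which promotes p53-dependent death and autophagy, had 41.03, 41.2 and 37.8 CPM and 246, 381 and 292 CPM in PSC4, and 92.8, 81.4 and 90.01 CPM and 131, 83.5 and 87.8 CPM in KPC4. Its difference was 2.74 (SE 0.29, edgeR adjusted p = 0.000314).

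Tnfrsf10b (ENSMUSG00000022074), the mouse receptor of the death ligand TRAIL, had 22.9, 17.4 and 19.02 CPM and 80.9, 94.3 and 72.8 CPM in PSC4. In KPC4, 100.2, 133 and 113 CPM in controls stood against 137, 147 and 137 CPM with Gem-PSC-SU. The PSC4 level rose towards that of KPC4, where the gap between arms was small. Mdm2 (ENSMUSG00000020184), the ubiquitin ligase that degrades p53, had the largest difference of the list, 4.24 (SE 0.41, edgeR adjusted p = 0.000242), since its KPC4 values were 51.9, 62.8 and 56.6 CPM and 80.7, 196 and 121 CPM, a change of 1.21 against 5.45 in PSC4.

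Death regulators of the Bcl2 family did not move as one. Of 13 members 4 were called (30.8%), 3 with a difference above 0 and 1 below. Pmaip1 (Noxa), a p53 target that opposes Mcl1, had changes of 4.59 in PSC4 and 2.20 in KPC4. Of the protective genes, Mcl1 had 0.96 and -0.01, and Bcl2l1 (Bcl-xL) 0.72 and -0.49. Bcl2l1 (edgeR adjusted p of the difference = 0.00429) was at 47.4, 34.3 and 45.1 CPM and 69.1, 71.5 and 67.9 CPM in PSC4, and at 101, 96.6 and 95.4 CPM and 71.7, 70.04 and 67.1 CPM in KPC4, with no overlap in either line. Bmf, a death activator linked to loss of attachment, had changes of -4.997 and -0.96, with KPC4 arms that overlapped, and its difference lost the threshold in 5 of 21 alternatives (highest edgeR or limma adjusted p 0.0668).

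**Figure D4:**
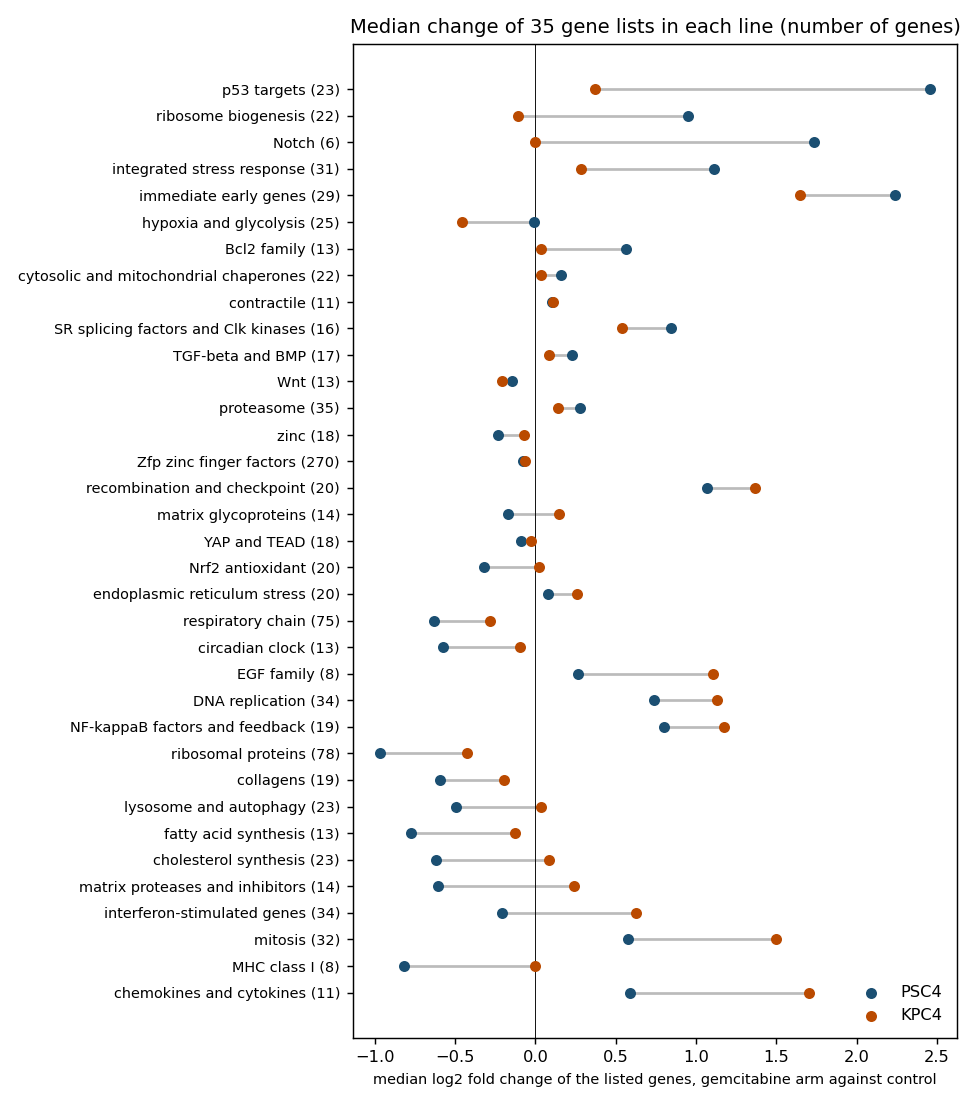
Median log2 change of 35 gene lists in PSC4 (blue) and KPC4 (orange), ordered by the median difference between the lines, with the number of members in parentheses. The p53 targets at the top have medians of 2.46 and 0.37, and the chemokines and cytokines at the bottom 0.59 and 1.70.

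Ribosome assembly genes differed as a group of small shifts in one direction. All 22 members had a difference above 0, and 7 passed (31.8%), all higher in PSC4. The median was 0.95 in PSC4, where 15 rose, and -0.11 in KPC4, where 0 passed in edgeR, 2 had an unadjusted p under 0.05 and DESeq2 called 1. Nop56 (ENSMUSG00000027405), a core protein of box C/D snoRNPs that guide rRNA methylation, was at 116, 113 and 103 CPM and 515, 428 and 474 CPM in PSC4. Its KPC4 libraries were at 117, 199 and 142 CPM and 116, 257 and 189 CPM, with overlapping arms. The difference was 1.80 (edgeR adjusted p = 0.00952).

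Nop2, an rRNA methyltransferase, had changes of 1.66 and 0.22, and Mybbp1a, a nucleolar protein, 1.02 and -0.19. Polr1b (ENSMUSG00000027395), already counted among the opposite changes, was at 26.7, 25.9 and 32.7 CPM and 40.5, 46.9 and 50.97 CPM in PSC4 and at 49.02, 68.1 and 45.96 CPM and 39.7, 34.6 and 35.1 CPM in KPC4. Its arms did not overlap in either line, as the class of opposite changes required. The 78 ribosomal protein genes themselves did not share this pattern: their median was -0.97 in PSC4, where 68 fell, and -0.43 in KPC4, and 1 of 78 was called for the difference (1.28%), against 21 (26.9%) with the replicate block.

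The integrated stress response, the programme of factor ATF4 that follows shortage of amino acids, had 31 members with medians of 1.11 in PSC4 and 0.28 in KPC4. For the difference 6 passed as higher in PSC4 (19.4%) and 2 as lower (6.45%). Slc7a11 (ENSMUSG00000027737), the cystine carrier, was at 5.64, 9.77 and 12 CPM with Control-SU and 36.2, 103 and 159 CPM with Gem-SU. KPC4 values were 43.96, 140.3 and 59.8 CPM and 57.1, 122 and 92.2 CPM. The KPC4 arms overlapped, and the Gem-SU libraries were widely spread, replicate 1 being the lowest. Its difference was 3.29 (SE 0.74, edgeR adjusted p = 0.0154).

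Cth (ENSMUSG00000028179), the enzyme that makes cysteine from cystathionine, had 10.96, 14.99 and 14.99 CPM and 60.9, 82.8 and 94.2 CPM in PSC4, and 7.57, 13.8 and 13.5 CPM and 6.70, 12.6 and 10.5 CPM in KPC4. Its difference was 2.77 (edgeR adjusted p = 0.00168). Sesn2, a sensor of leucine, rose in PSC4 by 3.20 and was higher in KPC4 by 0.78, and Slc7a5, a carrier of large amino acids, changed by 1.99 and 0.29. The 2 called as lower in PSC4 were regulators: Cebpb, a C/EBP factor, with -1.23 and 1.29, and Nupr1, a stress-inducible nuclear protein, with -1.34 and 0.81.

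Of 13 fatty acid synthesis genes 8 fell in PSC4, where 23.7% of all members did. For the difference 4 were called (30.8%), all lower in PSC4 and all PSC4-restricted. The list had medians of -0.78 and -0.13. Scd1 (ENSMUSG00000037071) and Scd2 (ENSMUSG00000025203) code for desaturases that make monounsaturated fatty acids. Scd1 was at 595, 1069 and 1073 CPM and 245, 254 and 292 CPM in PSC4, and at 1710, 1931 and 1770 CPM and 2159, 1558 and 1751 CPM in KPC4. Scd2 was at 1821, 2172 and 2820 CPM and 589, 560.4 and 615 CPM in PSC4, and at 4864, 5444 and 4762 CPM and 5187, 3261 and 3635 CPM in KPC4. Both had separate PSC4 arms and overlapping KPC4 arms. Their differences were -1.81 and -1.63 (edgeR adjusted p = 0.0038 and 0.005).

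Elovl5 and Fads1, which lengthen and desaturate polyunsaturated fatty acids, changed by -1.06 and -1.44 in PSC4, and by 0.03 and -0.24 in KPC4, and Fads1 lost the threshold without PSC4 Control-SU replicate 3 or Gem-SU replicate 2 (highest edgeR adjusted p 0.0537). The cholesterol pathway (23 genes) had medians of -0.62 and 0.08. For the difference Sqle and Dhcr7 passed, both lower in PSC4, and their share of 8.7% was below that of all members. With the replicate block 15 of 23 passed (65.2%). Of 23 genes of lysosome and autophagy 4 were called lower in PSC4 (17.4%) and 1 higher, the latter Ulk1, the kinase that starts autophagy, with 1.19 and -0.02.

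Of 25 genes of glucose uptake and hypoxia 4 were called (16%), each higher in PSC4. Slc2a1, the glucose carrier GLUT1, had changes of 2.18 and -0.31 and shared the lowest adjusted p of the genes named here (edgeR, 7.4e-05). Hk2, hexokinase 2, had 1.30 and -0.40. Ero1l, an oxidase of the endoplasmic reticulum, and Ddit4, an inhibitor of mTOR, had 1.51 and -0.14, and 2.20 and 0.22. The list as a whole was at -0.01 in PSC4 and -0.46 in KPC4.

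Inflammatory genes showed the reverse order. The 11 chemokine and cytokine members had medians of 0.59 in PSC4 and 1.70 in KPC4, and 7 were called (63.6%), 6 of them lower in PSC4. All 11 were above 0 in KPC4 and 7 passed in the joint fit. Gem-PSC-SU replicate 1 responded least: relative to the KPC4 controls the list was at 1.03 there and at 2.38 and 1.78 in replicates 2 and 3.

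Il1rn (ENSMUSG00000026981), the antagonist of the interleukin 1 receptor, was at 137, 159 and 113 CPM with Control-SU and 21.5, 7.69 and 9.18 CPM with Gem-SU. In KPC4 the values were 220.3, 343 and 289 CPM and 276, 582 and 358 CPM. The PSC4 arms were far apart and the KPC4 arms overlapped. The difference was -3.92 (SE 0.52, edgeR adjusted p = 0.000962).

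The neutrophil chemokines Cxcl1 and Cxcl5 share a receptor and differed in pattern. Cxcl1 (ENSMUSG00000029380) was at 19.8, 38.9 and 30.1 CPM and 50.3, 42.5 and 36.1 CPM in PSC4, arms that overlapped, and at 1.98, 2.78 and 2.05 CPM and 15.8, 176 and 129 CPM in KPC4. Cxcl5 (ENSMUSG00000029371) was at 115, 144 and 129.8 CPM and 10.3, 4.20 and 2.27 CPM in PSC4, and at 21.7, 8.70 and 6.87 CPM and 26.1, 19.2 and 11.8 CPM in KPC4, where the arms overlapped. The arms of Cxcl1 were separate in KPC4 alone and those of Cxcl5 in PSC4 alone. Cxcl1 had a difference of -5.02 (edgeR adjusted p = 0.00328, lost in 1 of 21 alternatives, limma, 0.0676) and Cxcl5 of -5.14 (edgeR adjusted p = 0.00142). Cxcl10, an interferon-induced chemokine of T cells, was higher in both lines, by 1.15 and 5.89. Lif, a cytokine of the interleukin 6 family, was the one called as higher in PSC4, with 5.05 and 1.96.

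Interferon-stimulated genes (34) had medians of -0.21 in PSC4 and 0.63 in KPC4, and 33 of 34 differences were below 0. The 6 called were Ifit2, Ifit3, Ifit3b, Oas2, Oasl2 and Gbp2, all lower in PSC4 (17.6% of the list, and 16 genes or 47.1% with the replicate block). Several of these belong to families of similar genes whose reads can be shared. By library the KPC4 list was at -0.13, 0.93 and 0.91 with Gem-PSC-SU, and replicate 1 lay within the range of its controls, -0.23 to 0.11. In PSC4 it was at -0.59, -0.20 and -0.08 with Gem-SU and between -0.09 and 0.13 in controls. Class I antigen presentation (8 genes) had a median of -0.82 in PSC4 and 0.00 in KPC4, and 8 of 8 differences were below 0. Of these Tapbp, which loads peptides, and H2-T23 passed (25%), with PSC4 changes of -1.06 and -1.83 and KPC4 changes of -0.02 and -0.29, although each lost the threshold in 6 or 7 of 21 alternatives.

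Factors and feedback genes of NF-kappaB (19) had medians of 0.80 and 1.17, and among those that passed 9 rose and 4 fell in PSC4 and 11 were higher in KPC4 in the joint fit. The 5 called (26.3%) were Bcl3, Birc3, Birc2, Nfkbiz and Tnip1, all lower in PSC4. Bcl3 (ENSMUSG00000053175), a nuclear partner of NF-kappaB, was at 24.9, 16.8 and 20.8 CPM and 13.7, 11.7 and 6.15 CPM in PSC4, and at 33.2, 32.7 and 35.6 CPM and 38.8, 104 and 85.9 CPM in KPC4. Birc3 (ENSMUSG00000032000), the ubiquitin ligase cIAP2, was at 33.6, 36.4 and 34.7 CPM and 22.3, 23.2 and 25.5 CPM in PSC4, and at 30.4, 30.6 and 29.4 CPM and 39.8, 74.6 and 45.8 CPM in KPC4. Both belong to the opposite changes, which required arms without overlap in either line. The KPC4 change of Bcl3 did not pass in the joint fit (edgeR adjusted p = 0.0674). Birc2 lost the threshold without Control-PSC-SU replicate 3 or Control-SU replicate 3 (highest edgeR adjusted p 0.0594).

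**Figure D5:**
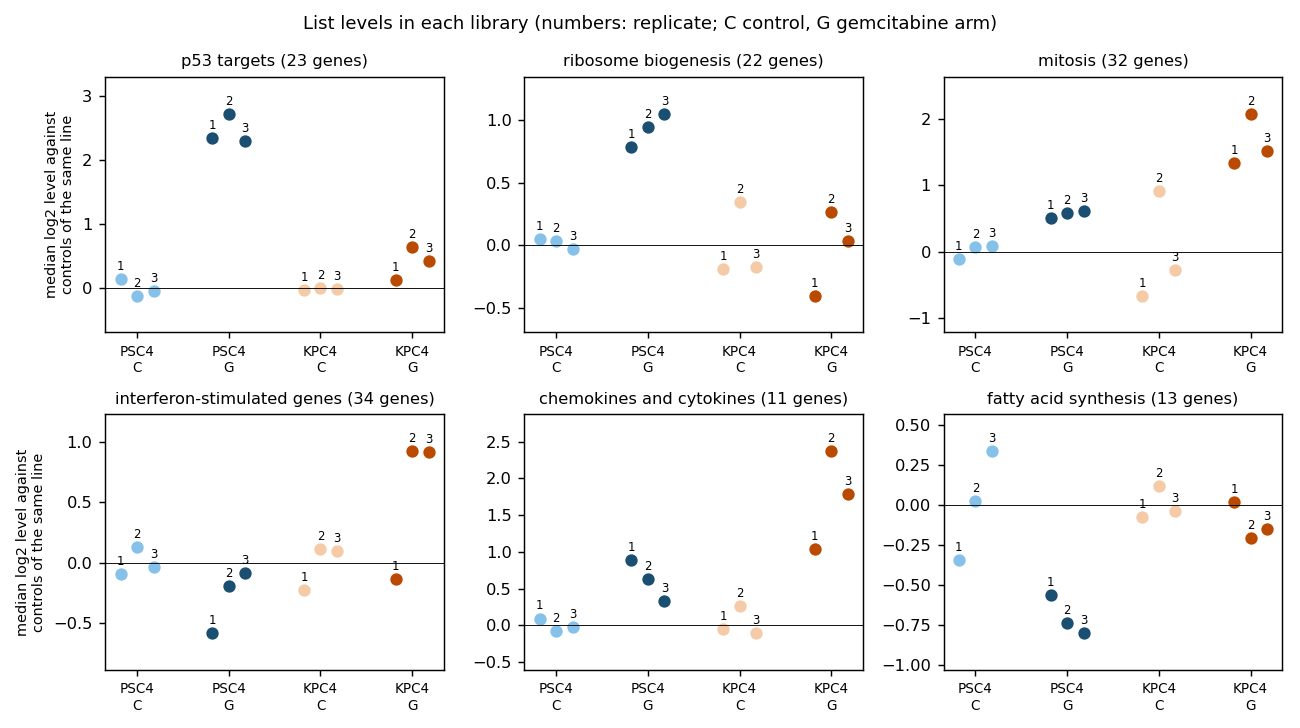
Median log2 level of 6 gene lists in each library, relative to the mean of the controls of the same line (points, numbered by replicate; C control, G gemcitabine arm). The p53 and ribosome biogenesis lists are high in Gem-SU PSC4, the interferon and chemokine lists are high in Gem-PSC-SU replicates 2 and 3 of KPC4, and replicate 2 of the KPC4 controls stands above the others for mitosis.

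Immediate early genes (29) had medians of 2.24 and 1.65, with 25 rising in PSC4 and 18 passing as higher in KPC4 in the joint fit, and 4 were called as higher (13.8%) and 3 as lower (10.3%) in PSC4. The 4 were Dusp6, Dusp4, Spry4 and Nr4a2, the first 3 being inhibitors that the ERK pathway induces. Dusp6 (ENSMUSG00000019960), an ERK phosphatase, was at 6.61, 4.46 and 8.03 CPM and 42.3, 52.2 and 56.4 CPM in PSC4, and at 174, 329 and 253 CPM and 288, 419.7 and 305 CPM in KPC4. It was high in KPC4 from the start, and the KPC4 arms overlapped. The difference was 2.56 (SE 0.37, edgeR adjusted p = 0.00156). The 3 called as lower were Fosl2, Klf10 and Klf6, a growth repressor with 0.13 and 1.66. Hbegf, a ligand of the EGF receptor, rose by 4.56 in PSC4 and was higher by 1.92 in KPC4.

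Of 6 Notch genes 2 were called (33.3%), both higher in PSC4. Notch1 (ENSMUSG00000026923), a receptor, was at 28.1, 27.7 and 30.4 CPM and 110.1, 159.5 and 124 CPM in PSC4, and at 76.9, 59.6 and 71.8 CPM and 86.7, 47.5 and 61.9 CPM in KPC4. Jag1 (ENSMUSG00000027276), its ligand, was at 6.46, 9.36 and 7.67 CPM and 24.5, 33.8 and 33.7 CPM in PSC4, and at 191, 189 and 204 CPM and 229.8, 226 and 164 CPM in KPC4. In both cases the KPC4 arms overlapped and the PSC4 arms did not. The differences were 2.28 and 1.88 (edgeR adjusted p = 0.001 and 0.00156).

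TGF-beta and BMP genes (17) were called in both directions, 4 higher (23.5%) and 3 lower (17.6%) in PSC4. Grem1 (ENSMUSG00000074934), a BMP antagonist, went from 2466, 2197 and 2063 CPM to 789, 468 and 511 CPM in PSC4, against 61.1, 56.2 and 46.8 CPM and 58.8, 46.5 and 44.6 CPM in KPC4, and the ligand gene Bmp4 changed by -1.78 and 0.46. Of the receptors, Tgfbr2 had -1.07 and 0.03, and Tgfbr1 0.47 and -0.45, neither change of Tgfbr1 passing by itself. The inhibitor Smad7 had 2.67 and 0.84, and the target Id1 1.45 and -0.52. The target Id2, the fourth called as higher, had 1.55 in PSC4 and 0.00 in KPC4. Of 13 Wnt genes, the receptor Fzd1 (-2.24 and -0.05), the inhibitor Dkk2 (-3.09 and -1.10) and the factor Tcf7 (-1.40 and -0.13) were called as lower in PSC4 (23.1%), and the ligand Wnt7b as higher (3.97 and 0.14). Dkk2 and Tcf7 lost the threshold in 5 and 8 of 21 alternatives.

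Collagens and their enzymes (19) were called as lower in PSC4 for 6 genes (31.6%) and as higher for 1. Col3a1 (ENSMUSG00000026043), the chain of type III collagen, fell from 1262, 798 and 926 CPM to 302, 112 and 86.9 CPM in PSC4, and was at 21.6, 18.4 and 26.3 CPM and 24.4, 10.6 and 22.96 CPM in KPC4. Col6a2, a chain of type VI collagen, and Col11a1, of type XI, changed by -1.49 and -1.87 in PSC4 and by 1.04 and -0.56 in KPC4. The 3 lost the threshold in 5, 7 and 5 of 21 alternatives. Plod2 (ENSMUSG00000032374), which hydroxylates collagen lysines for cross-links, went the other way, from 32.2, 40.7 and 35.9 CPM to 112, 144 and 110.3 CPM in PSC4. In KPC4 it was at 104, 120.4 and 117 CPM and 129.5, 55.2 and 42.9 CPM, where replicate 1 lay above and replicates 2 and 3 below the controls. Stellate markers, Col3a1 among them, fell in sum in the same PSC4 libraries, as given above, while Acta2 and Des did not. The part of these markers in the collagen differences was not tested.

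Clock genes (13) were called as lower in PSC4 in 4 cases (30.8%) and higher in 1. Bhlhe40 (ENSMUSG00000030103), a repressor of the clock, went from 69.4, 85.9 and 89.4 CPM to 31.2, 23.1 and 27.3 CPM in PSC4, with 186, 193 and 181 CPM and 229, 148 and 149 CPM in KPC4. Nr1d2 (Rev-erb beta) changed by -1.54 and -0.24, and Dbp, a clock output factor, by -3.64 and -1.06, the latter losing the threshold in 11 of 21 alternatives. Cry1, a repressor of the core loop, was the one called as higher, with 1.35 and -0.02, and lost the threshold in 5 of 21 alternatives.

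Some lists did not separate the lines by their calls. Of 75 respiratory chain genes 0 passed for the difference in edgeR, 5 had an unadjusted p under 0.05, DESeq2 called 2, limma 0 and the fit with the block 9. Of 16 splicing factors and Clk kinases 0 passed in edgeR, 2 had an unadjusted p under 0.05, DESeq2 and limma called 1 each and the fit with the block 3. Of 35 proteasome genes 1 passed (2.86%). The median differences of these lists were -0.36, 0.20 and 0.02. Respiratory chain genes had medians of -0.63 and -0.28, and 37 of 75 fell in PSC4. The remaining lists had 1 call of 22 for chaperones (4.55%), 1 of 20 for endoplasmic reticulum stress (5%), 1 of 11 for contractile genes (9.09%), 2 of 18 for zinc genes (11.1%), 2 of 14 for matrix glycoproteins and for matrix proteases with their inhibitors (14.3% each), 3 of 20 for Nrf2 targets (15%) and 3 of 18 for YAP and TEAD targets (16.7%). Of the 8 EGF family genes 2 were called (25%), Hbegf as higher and Egfr as lower in PSC4. The 270 Zfp zinc finger genes, with 17 calls or 6.30%, stood below the share of all genes tested.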

How the data were processed

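RNA of 12 cell cultures was sequenced (Illumina NovaSeq X Plus). Per the labels and files, the authors deposited a table of whole-number counts per Ensembl gene and library for each line. The submitters' processing notes name FastQC, Trim Galore 0.6.10, cutadapt 5.2, Salmon, R 4.5.1, DESeq2 and build GRCm39 without their roles. Whether the deposited counts are rounded Salmon estimates is not stated, so genes sharing reads with similar copies are uncertain, and strand is not given in the sources used here. Symbols came from GENCODE M21 (99.742% of 14360 shared identifiers).

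All 14360 shared genes entered one fit in edgeR 4.0.16 (R 4.3.3): filterByExpr (13632 kept), TMM scaling over 12 libraries, one mean per group, robust quasi-likelihood tests, Benjamini-Hochberg adjustment over all 13632 genes, threshold 0.05. The standard error is the absolute log2 change divided by the root of F. CPM used TMM-adjusted totals, and plain totals for the sums and means of the cell type markers. The median biological coefficient of variation was 0.2065 in PSC4 and 0.2423 in KPC4, above counting error at these depths. P-values measure the spread between these libraries. List levels used log2(CPM + 0.5).

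The genes, classes and lists were chosen with earlier results of these data known. Named were, among genes with at least 50 mean counts in each group, the 6 opposite genes per direction with the largest smaller change, the 5 largest interactions per restricted class and direction, and, in lists with at least 25% called, the 4 called genes of smallest p. Lists are described by counts and medians, without a test. Same-numbered libraries deviated together in KPC4 (r = 0.2789, 0.3661 and 0.1897) but not in PSC4 (0.3954, -0.0609 and 0.0382), so the numbers pair KPC4 libraries by their values alone. Alternatives were DESeq2 1.42.0, its size factors, TMM within lines, limma 3.58.1 (voom weights), no filter, the replicate block, robust estimation off, a test against 1.2-fold, higher count minimums, other sizes, each line fitted alone and each library left out. The code was tested on simulated data. The deposited comparison tables were not used.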

Additional observations from a re-analysis of the deposited data

Results flagged for a closer look

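The test of the difference between the lines picked out 1082 members (10.7%, against 9.85% of all genes tested). Rules of size and overlap, which are not tests, sorted these into classes. They gave 50 opposite (background 0.682%), 648 PSC4-restricted (background 5.6%) and 23 KPC4-restricted changes (background 0.235%). Both line changes passed in the joint fit for 13 of the 50 opposite changes. Among the genes named for opposite changes, the difference on the log2 scale, PSC4 minus KPC4, was 3.84 for Dffb, 1.86 for Epop, 1.77 for Zfp428, 1.69 for Dusp9, 1.67 for Neto2 and 1.59 for Dyrk3. It was -4.01 for Cemip, -3.68 for Aldh1a7, -3.49 for Aldh1a1, -3.39 for Enpp2, -2.43 for Fosl2 and -2.40 for Knstrn. The line, the step of the transfer and the supernatant cannot be told apart in these values.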

How the results depend on the processing

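The 1082 differences between lines (interaction) became 1694 in DESeq2, 1778 with the replicate number as a block in KPC4 and 2520 with the block in both lines, where 1077 of the 1082 remained. The 528 KPC4 changes became 1125, 1096 and 1607 in these fits, 300 in the test against 1.2-fold and 0 with each line fitted by itself. KPC4-restricted changes (23) became 44, 54, 61 and, against 1.2-fold, 12. PSC4-restricted changes (648) became 1097 with the block in both lines. Opposite changes (50) became 25 at a mean of at least 500 counts and 122 with sizes of 0.3 and 0.7, and were 50 or 51 with the block. The replicate block changed the call of 1 named gene, Pcdh9. Other scalings moved the median difference of all members by less than 0.1. Leaving out each library gave 496 to 1680 differences, 3272 to 5038 PSC4 changes, 11 to 1691 KPC4 changes, 38 to 129 opposite, 343 to 1036 PSC4-restricted and 7 to 68 KPC4-restricted changes. Differences fell past 1.5 times without Gem-SU replicate 2 (496), Control-PSC-SU replicate 3 (632), Gem-SU replicate 3 (654), Control-SU replicate 3 (660) or Gem-PSC-SU replicate 3 (665), and rose when Gem-PSC-SU replicate 2 was left out (1680). KPC4 changes were 11 without Control-PSC-SU replicate 1 or 3, 95 and 284 without Gem-PSC-SU replicates 2 and 3, 312 without Control-SU replicate 3, and 1691 once Gem-PSC-SU replicate 1 was left out. Opposite changes were 129 and 76 without Gem-PSC-SU replicates 1 and 2. PSC4-restricted changes numbered 343 when Gem-SU replicate 2 was left out and 1036 when Gem-PSC-SU replicate 2 was. KPC4-restricted changes were 7, 9 or 15 without each PSC4 control, Gem-SU replicates 2 and 3, Control-PSC-SU replicates 1 and 3 or Gem-PSC-SU replicate 3, and rose to 68 when Control-PSC-SU replicate 2 was left out and to 64 when Gem-PSC-SU replicate 1 was. The cause was not tested, beyond that a fit without a library holds fewer samples.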

Other observations

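The difference furthest from 0 among all members was that of Rps6-ps4, a processed pseudogene of a ribosomal protein, at -26.53 (edgeR adjusted p = 0.128). Only 4 of 12 libraries had counts: 2182 and 8453 in Control-SU replicates 1 and 2, and 358 and 713 in Gem-PSC-SU replicates 1 and 3, with 0 in the others. The fitted value depends on these zeros and is no measure of size.

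Other PSC4-restricted genes, picked after their values were seen, included Cd274, the checkpoint ligand PD-L1, with a difference of 2.00, Tfrc, the transferrin receptor, with 2.27, and Cav1, the coat protein of caveolae, with -2.38. Lpar1, a receptor for the lipid that autotaxin makes, had a difference of -2.18, and Ly6a and Ly6c1, surface proteins of mesenchymal cells among others, had -2.21 and -2.74.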
